A study of Mus musculus with 6 samples.

Results

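The 10 genes described here encode the YAP and TEAD arm of the Hippo pathway, which was read by 22 of the 45037 probe sets tested, and by 10 of 18193 genes once the brightest probe set stood for each gene. They were chosen by name, as the co-activators Yap1 and Wwtr1, the DNA-binding factors Tead1, Tead2, Tead3 and Tead4, the kinases Lats1 and Lats2, and Amotl2 and Ankrd1. The rule uses no measured value, although the set was proposed with earlier results of these data known, and each of the 10 had at least 1 probe set annotated with that symbol alone. The cells were purchased mouse mesenchymal stem cells, grown on plastic and given rosiglitazone, insulin, isobutylmethylxanthine and dexamethasone, compounds in common use for making fat cells, anew 48 h before exposure. The irradiated group (3 cultures, 1 per experiment) received 2 h of continuous terahertz laser light at 2.52 THz, and the control group (3 cultures) stood beside it without light, at 26 to 27 °C for both. The 3 experiments are described by the submitters as independent, each culture was read on 1 Affymetrix array after the exposure ended, and no culture without the 4 compounds was compared.

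The Hippo pathway links cell density, attachment and tension to growth. The LATS kinases phosphorylate the co-activators YAP and TAZ (the product of Wwtr1), which then stay in the cytoplasm. Unphosphorylated YAP and TAZ enter the nucleus and bind TEAD proteins, which hold the DNA, to switch on targets such as Ankrd1, Amotl2, Lats2, Ccn1 and Ccn2. In mesenchymal stem cells TAZ is known as a partner of RUNX2 and a repressor of PPARG, and nuclear YAP and TAZ are associated with stiff, spread cultures and bone formation, their exclusion with fat formation. Much of this control acts on proteins and their place in the cell, which these arrays do not read.

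No difference between irradiated and control cultures passed the adjusted test in any of the 10 genes. After Benjamini-Hochberg adjustment over all genes, limma with pairs taken within experiments called 0 of 10, against a background of 0%, and each had an adjusted p of 0.995. At an unadjusted p under 0.05 it gave 1 of 10, Tead4, where 3.31% of all genes reached that level. Values are log2 levels on the scale of these arrays, so that 1 unit is a doubling. Of the 10 mean differences 5 were above 0 and 5 below, where 45.4% of all genes lay above. Their median was 0.0083 log2 units beside -0.01 over all genes. After each array was centred on its median gene, 7 of the 10 lay above 0, since Yap1 and Lats1 stood at -0.0067 before and at 0.0033 after. The 95% intervals of all 10 together ran from -0.40 to 0.57, and apart from Tead4 and Ankrd1 each lay between -0.28 and 0.30. Arrays have no read depth, and 6 of them limit the precision of these intervals.

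**Figure D1:**
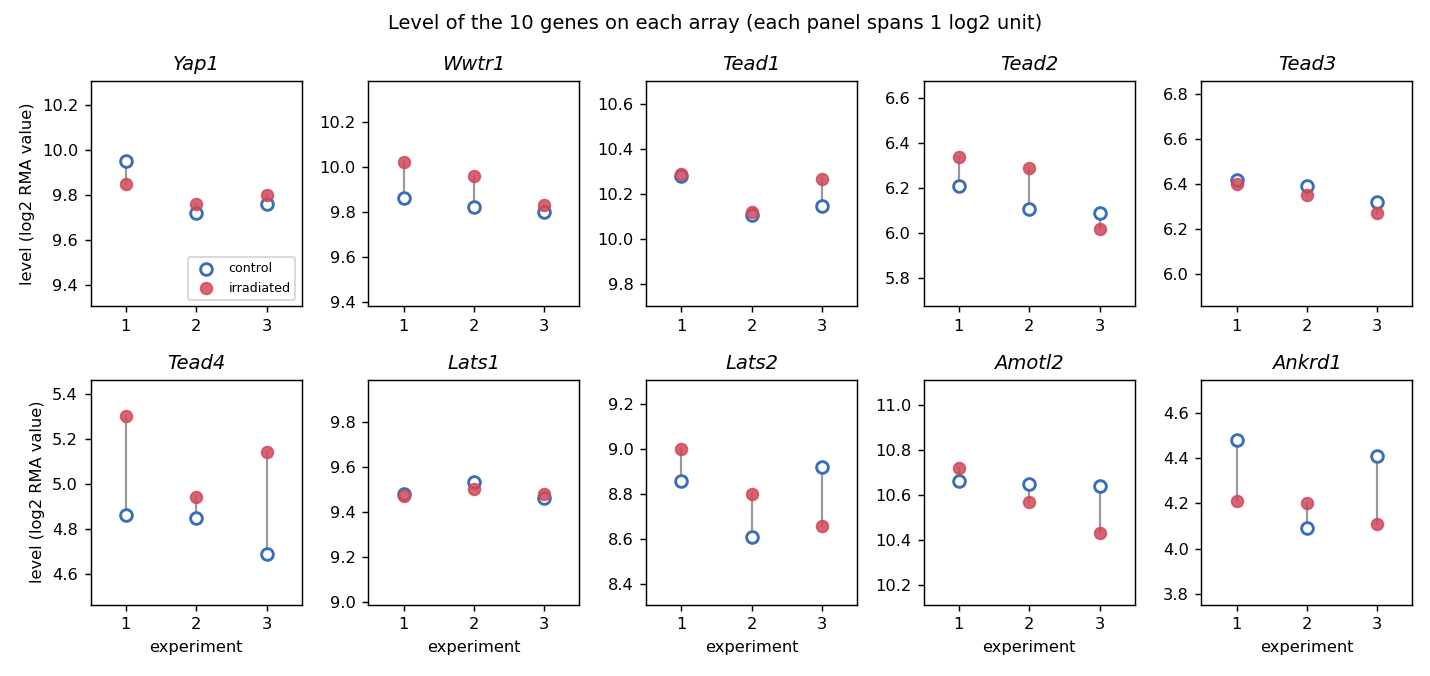
Level of each of the 10 genes (log2 RMA value, vertical axis) by experiment (horizontal axis), with open circles for control and filled circles for irradiated cultures joined within an experiment. Every panel spans the same height of 1 log2 unit, and only in Tead4 do the irradiated arrays all lie above the control arrays.

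Yap1, which encodes the co-activator YAP, had a mean difference close to 0. It read 9.95, 9.72 and 9.76 in the controls of experiments 1 to 3 and 9.85, 9.76 and 9.80 in the irradiated cultures, so that the groups overlapped, with the highest value in the experiment 1 control. The difference was -0.0067 log2 units (SE 0.080, n = 3 pairs; interval -0.20 to 0.18), which bounds the fold to between 0.872 and 1.14. A second, dimmer probe set of Yap1 (level 7.48) stood at 0.01, -0.24 and -0.03 in the 3 experiments. Yap1 lay among the brighter genes, with 87.9% of all genes at or below its level. Such a position also reflects how well the probes bind and is no ratio between genes.

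Wwtr1, which encodes TAZ, was read by 3 probe sets that did not point one way. The brightest gave 9.86, 9.82 and 9.80 in the controls and 10.02, 9.96 and 9.83 in the irradiated cultures, higher in 3 of 3 experiments, although the irradiated culture of experiment 3 lay below the control of experiment 1. Its difference was 0.11 log2 units (SE 0.079; interval -0.079 to 0.30). The other probe sets (levels 7.68 and 7.0) stood at -0.12 and -0.11. Their distance came from experiment 3, at -0.33 and -0.41, where the control array was the highest of the 6 on both (7.93 and 7.27). That control also stood apart in the signal of the 3' over the 5' control probe sets, at 0.68 for actin against 0.50 to 0.57 on the other arrays and at 0.11 for Gapdh against -0.10 to -0.08, and the part of this in the Wwtr1 values was not tested. Without experiment 3 these probe sets stood at -0.01 and 0.035, and the brightest at 0.15. Of all genes 8.23% were higher in every experiment, as were 3 of these 10 (Wwtr1, Tead1 and Tead4 on their brightest probe sets).

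Promoter windows that hold a TEAD word are shown for the co-activators and for the targets Ankrd1 and Amotl2, since the RNA of targets is the usual readout of YAP and TEAD activity. The window taken was the 250 bases before a RefSeq start on GRCm38.p6, and each was searched on both strands for the TEAD word GGAATG, which reads as CATTCC on the opposite strand. RefSeq windows were matched for 8 of the 10 genes, all but Tead1 and Tead4, with 12 windows in all. The sequences run 5′ to 3′ along the gene with the TEAD words in capitals. Bases inside the annotated gene are left out for Yap1, and for Amotl2, whose window lies inside the annotated gene, 30 bases around the word are shown.
Ankrd1 (chr19:36119845-36120094, minus strand): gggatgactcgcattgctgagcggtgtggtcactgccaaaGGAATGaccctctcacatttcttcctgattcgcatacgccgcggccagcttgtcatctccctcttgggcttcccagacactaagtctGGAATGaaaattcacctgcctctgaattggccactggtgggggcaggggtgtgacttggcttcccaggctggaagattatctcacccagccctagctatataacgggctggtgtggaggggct
Wwtr1 (chr3:57575911-57576160, minus strand): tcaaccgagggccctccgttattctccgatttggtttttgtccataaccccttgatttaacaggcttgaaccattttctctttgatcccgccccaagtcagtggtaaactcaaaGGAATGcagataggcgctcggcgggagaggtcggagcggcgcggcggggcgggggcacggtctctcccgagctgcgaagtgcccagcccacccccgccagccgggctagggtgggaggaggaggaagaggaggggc
Yap1 (chr9:8004639-8004846, minus strand): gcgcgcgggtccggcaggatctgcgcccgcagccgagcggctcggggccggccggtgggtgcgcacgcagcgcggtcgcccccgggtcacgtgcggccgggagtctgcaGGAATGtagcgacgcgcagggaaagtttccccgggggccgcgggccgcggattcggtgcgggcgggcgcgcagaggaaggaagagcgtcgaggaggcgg
Amotl2 (chr9:102717727-102717756, plus strand): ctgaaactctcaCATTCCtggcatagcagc

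Ankrd1 held 2 TEAD words, the nearer starting 123 bases before the start, and Yap1, Wwtr1 and Amotl2 held 1 in a window. Tead3 had the word in 2 of 3 windows. Lats2, also a target, had it in neither window, and Lats1 and Tead2 had it in none. In all, 7 of 12 windows held it, in 5 of the 8 genes, where both Wwtr1 windows overlap and share 1 word. The 2 Tead3 windows with the word overlap too. Of 32851 RefSeq windows of the same length 12.6% hold it. That is a share per window, and the share per gene over all genes was not counted. No member window held the AP-1 word TGANTCA (6.75% of all windows) or the SRF word called CArG box (1.47%), so that no words overlapped. A match is a description of letters and shows no binding, and the lack of one says only that these letters are not in this window.

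The 4 TEAD factors, which carry YAP and TAZ on DNA, had differences within 0.08 log2 units of 0 apart from Tead4. Tead1 read 10.28, 10.11 and 10.15 in controls and 10.29, 10.12 and 10.27 in irradiated cultures, with a difference of 0.047 log2 units (SE 0.078), and its dimmer probe set (level 4.75) was at 0.13, 0.07 and 0.15. Tead2 read 6.21, 6.11 and 6.09 in controls and 6.34, 6.29 and 6.02 in irradiated cultures, a difference of 0.08 (SE 0.087) that was below 0 in experiment 3. Tead3 read 6.42, 6.39 and 6.32 against 6.40, 6.35 and 6.27, and its small difference of -0.037 (SE 0.076) was below 0 in 3 of 3 experiments, as in 12.8% of all genes and no other member. The groups overlapped in Tead1, Tead2 and Tead3. Of all genes 90.7% lay at or below the level of Tead1, against 47.5% and 49.2% for Tead2 and Tead3.

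Tead4, known best from the trophectoderm and from muscle, had the largest difference of the 10. Its brighter probe set read 4.86, 4.85 and 4.69 in the controls and 5.30, 4.94 and 5.14 in the irradiated cultures, so that the groups did not overlap, as in 8.26% of all genes. The difference was 0.33 log2 units, or 1.25-fold (SE 0.10; interval 0.088 to 0.57; unadjusted p 0.0146 and Benjamini-Hochberg adjusted p 0.995 in limma), with 0.44, 0.09 and 0.45 in the 3 experiments. The other probe set stood at -0.47, 0.24 and -0.11, with a mean of -0.11 (SE 0.14), and was lowest in experiment 1, where the brighter one was clearly above 0. Both were dim, at levels of 4.96 and 3.87 where the median gene lay at 6.46, and detection calls were not used here. The higher value of 1 Tead4 probe set was therefore not matched by the other.

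**Figure D2:**
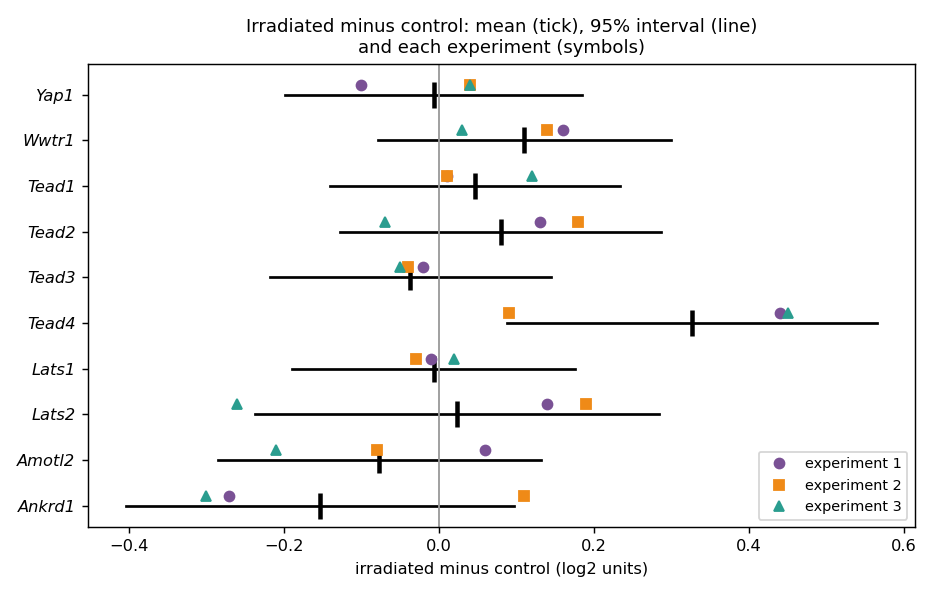
Irradiated minus control for each gene (horizontal axis, log2 units), with the mean over 3 experiments as a tick, the 95% interval from limma as a line and the experiments as symbols. The line of Tead4 is the only one that does not cross 0, and its adjusted p was 0.995.

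The LATS kinases, which inactivate YAP and TAZ, had mean differences close to 0 on their brightest probe sets. Lats1 was the steadiest of the 10 across the 6 arrays, at 9.48, 9.53 and 9.46 in controls and 9.47, 9.50 and 9.48 in irradiated cultures, with an SD of 0.025 over all 6. Its difference was -0.0067 log2 units (SE 0.076; interval -0.19 to 0.18). The other Lats1 probe set was at the low end of the array (level 3.06) and stood at -0.37, -0.01 and -0.07. Lats2, itself a target of YAP, read 8.86, 8.61 and 8.92 in controls and 9.0, 8.80 and 8.66 in irradiated cultures. Experiment 3 ran against the others, so that the difference was 0.023 (SE 0.11), with 0.14, 0.19 and -0.26 by experiment. The control of experiment 3, the array that stood apart in actin and Gapdh, was the highest of the controls. The irradiated array of experiment 3 was the lowest of the irradiated ones. On the next 2 Lats2 probe sets in brightness the control of experiment 1 was the highest control (8.04 and 6.33, against 8.0 and 6.27 in experiment 3). The part of the actin and Gapdh signal in the Lats2 values was not tested. Without experiment 3 the Lats2 difference stood at 0.17.

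Lats2 had 6 probe sets, and they disagreed in sign. The next in brightness (levels 8.0 and 6.37) stood at 0.17 (0.13, 0.45 and -0.08) and 0.19 (0.07, 0.40 and 0.11), both furthest above 0 in experiment 2. The 3 dimmer ones (levels 5.57, 4.19 and 3.13) stood at -0.013, 0.043 and -0.21, the last below 0 in 3 of 3 experiments with an unadjusted p of 0.0526 in limma. A further probe set that the annotation gives to both Lats2 and Xpo4 was left out. Over all 22 probe sets of the 10 genes none passed limma with Benjamini-Hochberg adjustment, each at an adjusted p of 0.995, and 1 had an unadjusted p under 0.05, where the background over all probe sets was 0% and 3.77%.

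**Figure D3:**
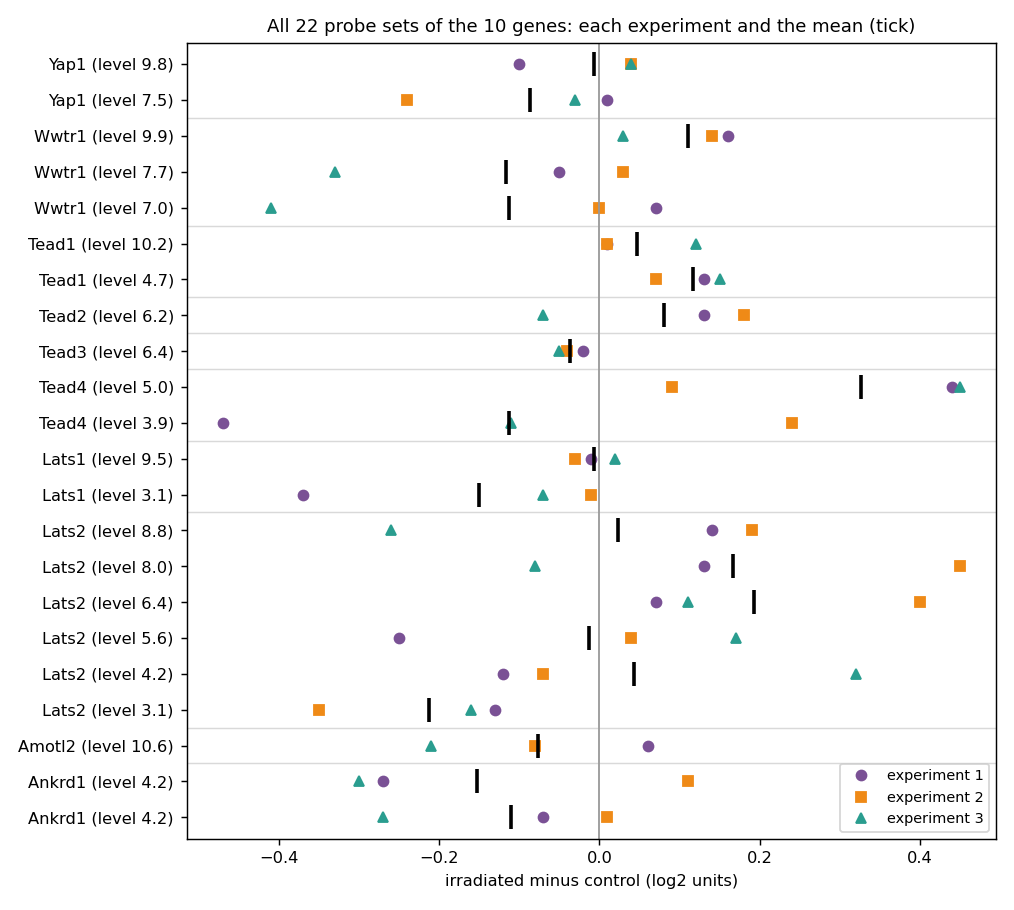
All 22 probe sets of the 10 genes, ordered by gene and level, with irradiated minus control (horizontal axis, log2 units) in each experiment as symbols and the mean as a tick. The ticks of Wwtr1, Tead4 and Lats2 lie on different sides of 0, while those of Yap1, Tead1, Lats1 and Ankrd1 each stay on 1 side.

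Amotl2 and Ankrd1, the members known best as targets, had means below 0 that did not pass the test. Amotl2, which encodes an angiomotin-like protein that holds YAP at junctions and is induced by it, read 10.66, 10.65 and 10.64 in the controls and 10.72, 10.57 and 10.43 in the irradiated cultures. The controls lay within 0.01 of their mean (SD, n = 3) and the irradiated arrays spread around them, and the difference was -0.077 (SE 0.087). Ankrd1, a nuclear and sarcomeric ankyrin repeat protein that is a standard readout of YAP, read 4.48, 4.09 and 4.41 in the controls and 4.21, 4.2 and 4.11 in the irradiated cultures. The control of experiment 2 was the lowest array and the other controls were the highest. Its difference was -0.15 (SE 0.10; interval -0.40 to 0.097), at -0.27, 0.11 and -0.30 by experiment, and the other probe set (level 4.18) had the same signs, at -0.07, 0.01 and -0.27. Of all genes 25.0% lay at or below the level of Ankrd1 and 93.2% at or below that of Amotl2.

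Other targets of YAP and TAZ gave no common direction. Of 19 listed targets, all measured, 0 were called by limma with Benjamini-Hochberg, 1 had an unadjusted p under 0.05, and 9 lay above 0 and 10 below, with a median of -0.0067 log2 units. Ccn2, connective tissue growth factor and the most used readout of YAP, read 12.89, 12.37 and 12.79 in controls and 12.81, 12.60 and 12.54 in irradiated cultures, a difference of -0.033 (SE 0.11). Ccn1, or Cyr61, read 12.11, 11.77 and 12.03 against 12.10, 11.99 and 11.84, a difference of 0.0067 (SE 0.10), and its 3 other probe sets stood between 0.097 and 0.14. Both were bright in every culture and each was lower in the irradiated culture of experiment 3 and higher in that of experiment 2. The 4 with the smallest unadjusted p were Nt5e, a surface enzyme of stromal cells (0.21), the transcription factor Foxf2 (0.24, at a dim level of 4.6), Gadd45a, a growth arrest gene (-0.16), and Fjx1 (-0.11). Other probe sets had the opposite sign for Foxf2 (-0.097) and, in 1 of its 2 others, for Fjx1 (0.10), while those of Nt5e stood at 0.10 and 0.0067. By experiment, 5, 15 and 6 of the 19 targets were above 0, against 7434, 8547 and 8903 of all 18193 genes, and the median target stood at -0.03, 0.07 and -0.06. Of the members 6, 7 and 5 of 10 were above 0.

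The rest of the pathway was likewise uncalled. Of 24 listed upstream genes and cofactors 23 were measured, all but the kinase gene Stk3, and 14 lay above 0 and 9 below, with 0 called by limma and Benjamini-Hochberg, 1 at an unadjusted p under 0.05 and a median of 0.017 log2 units. Mob1a, an activating partner of the LATS kinases, read 10.07, 10.02 and 10.06 in controls and 10.19, 10.46 and 10.26 in irradiated cultures. Its groups did not overlap, and the difference was 0.25 log2 units (SE 0.092; unadjusted p 0.0302 and adjusted p 0.995 in limma with Benjamini-Hochberg). Its other probe sets (levels 8.48 and 6.55) had means of 0.17 and 0.12 with a value below 0 in experiment 1. Next by p were the protocadherin Fat4 (0.17) and the TEAD cofactors Vgll1 (0.11) and Vgll3 (0.14). Vgll1 was dim, at a level of 3.59, against 9.15 for Fat4 and 10.04 for Vgll3. Stk4, the upstream kinase MST1, stood at -0.017 (SE 0.076), Nf2, the tumour suppressor merlin, at -0.013 (SE 0.079), and Vgll4, which competes with YAP for TEAD, at 0.013 (SE 0.13). Genes of actin and SRF, which share mechanical inputs with YAP, had 0 of 12 called and 0 at an unadjusted p under 0.05 in limma, with a median of 0.18. Actg2 (0.33), Acta2 (0.23), Tpm1 (0.21) and Tagln (0.34) had the smallest p, each below 0 in experiment 1 and above 0 in experiments 2 and 3, although the dimmest of 3 other Tpm1 probe sets stood at -0.09.

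Differences between experiments in the 10 genes did not pass the test either. The mean of the pair of arrays in an experiment ranged over 0.045 (Lats1) to 0.23 (Lats2) log2 units, with a median of 0.17 where that of all genes was 0.13. limma's test of the experiment term called 0 of 10 with Benjamini-Hochberg, with 0 at an unadjusted p under 0.05, against 0% and 5.46% of all genes, and the unadjusted p ran from 0.182 for Tead2 to 0.872 for Lats1. In 9 of 10 genes, all but Lats1, experiment 1 had the highest mean, as in 36.3% of all genes, and in 42.5% of those that reached the median level. The same held in the controls alone for 8 of 10 (35.9% of all genes) and in the irradiated cultures alone for 9 of 10 (32.4%). These counts use the brightest probe sets. The other probe sets of Yap1, Tead1, Tead4, Ankrd1 and Lats1 also had their highest mean in experiment 1. Both others of Wwtr1 were highest in experiment 3 (7.765 and 7.065, against 7.725 and 7.015 in experiment 1). Those of Lats2 were split between experiments 1 and 2. Of the 19 other targets, 12 had their highest experiment mean in experiment 1, 10 in the controls alone and 11 in the irradiated cultures alone, and of 23 upstream genes and cofactors 13, 13 and 10. The actin and SRF genes split by group, since experiment 1 was the highest for 12 of 12 in the controls but for 2 of 12 in the irradiated cultures, where it was the lowest for 7, and their experiment mean was highest there for 12 of 12.

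Macrophage markers ran the other way from the 10 genes, and fat cell markers followed them in part. All 10 measured macrophage markers, among them Csf1r, Adgre1 and C1qa, were lowest in experiment 1, as were 35.2% of all genes, and 9 of 10 were highest in experiment 3 (31% of all genes). They were bright, with 9 of 10 at or above the median gene, and their mean level ran from 10.84 to 11.12 in controls and from 10.67 to 11.33 in irradiated cultures (as the log2 of the summed levels, 15.39 to 15.58 and 15.26 to 15.74). For macrophage markers limma's test of the experiment term gave 7 of 10 at an unadjusted p under 0.05 and 0 called with Benjamini-Hochberg. Of all genes 5.46% reached that level and 0% were called. Their median range between experiments was 0.47 log2 units, against 0.17 for the 10 genes, of which 0 reached that level. Fat cell markers were bright too, with 7 of 7 at or above the median gene and a summed level of 15.66 to 15.82 in controls and 15.59 to 15.81 in irradiated cultures. Their experiment mean was highest in experiment 1 for 6 of 7, but among the controls experiment 2 was the highest for 7 of 7 and among the irradiated cultures it was the lowest for 7 of 7. All 7 had a mean irradiation difference below 0, with a median of -0.16 log2 units and 0 called by limma (0 at an unadjusted p under 0.05), and their mean was -0.51 in experiment 2 against 0.071 and -0.0014 in experiments 1 and 3. Of 9 measured stromal markers 8 reached the median gene, whereas Thy1, at 3.88, did not, and 6 of 9 had their highest mean in experiment 1. Of the markers of other cells 0 of 6 endothelial, 0 of 6 muscle and 1 of 5 epithelial ones reached the median gene. Experiment 1 had the highest mean for 3 of 6, 3 of 6 and 3 of 5 of them. The part of these cell types in the values of the 10 genes was not tested, and a lower share of a cell type and less RNA per cell cannot be told apart in such cultures.

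**Figure D4:**
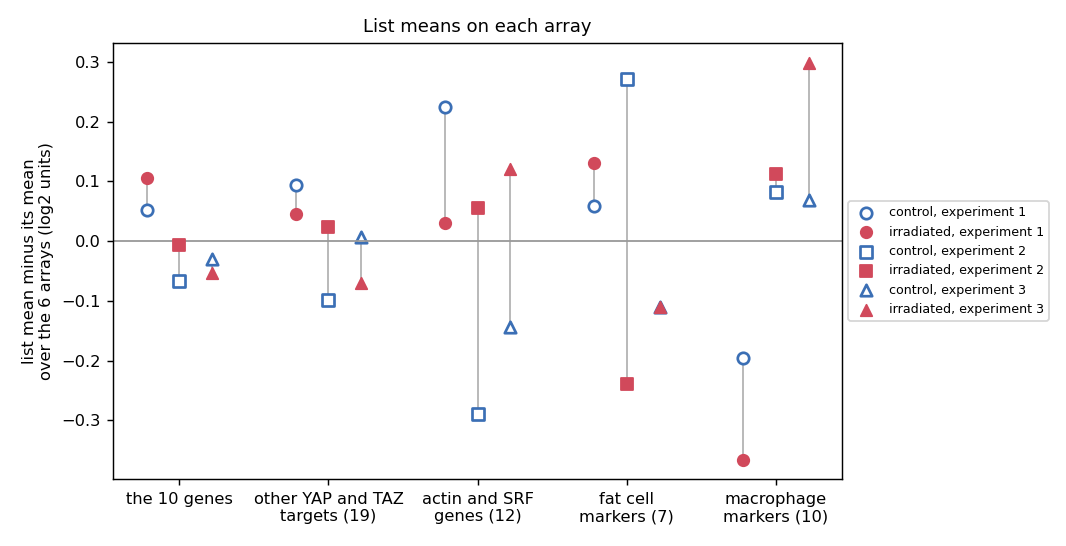
Mean of each gene list on each array minus its mean over the 6 arrays (vertical axis, log2 units), for the 10 genes, 19 other YAP and TAZ targets, 12 actin and SRF genes, 7 fat cell markers and 10 macrophage markers, with open symbols for control and filled for irradiated cultures. Both arrays of experiment 1 are the highest for the 10 genes and the lowest for the macrophage markers.

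The genes whose pattern over the 6 arrays was most like that of a member were picked by Pearson's r from the 1278 genes that reached the median level and had an SD over the arrays at or above its 0.75 quantile. For Yap1 they were Tacc2 (r = 0.999), Slc2a13 (0.987) and Ptprv (0.979), each highest in the control of experiment 1 like Yap1 itself. For Amotl2 they were Cp, which encodes ceruloplasmin (0.980), Lbp, the lipopolysaccharide binding protein (0.972), and the lipoprotein receptor Vldlr (0.968), all lowest in the irradiated culture of experiment 3. For Ankrd1 they were Lig4 (0.959), Slc2a9 (0.956) and Tram1l1 (0.955). These are the best of many candidates over 6 arrays that share 3 experiments and 1 normalization, and they are given as a description.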

How the data were processed

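Per the submitters' processing notes the authors used RMA, affy and limma. No version is given in the sources used here. The deposited table holds 1 log2 value per probe set and array, rounded to 2 decimals. No label states the log base, and the range of 1.73 to 14.53 is that of RMA log2 values. Quantile normalization hides a change common to all transcripts, and RMA tends to understate changes of dim probe sets. The array medians lay between 5.01 and 5.04. No array batch was tested.

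The 64 array controls were left out of the tests. Of 45037 probe sets 34945 had 1 symbol in the platform annotation, 932 several and 9160 none. Each of 18193 genes was represented by its brightest probe set.

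The test was limma 3.58.1 in R 4.3.3 (lmFit, eBayes), irradiated minus control with the experiment as a block, 2 residual degrees of freedom plus 4.66 from eBayes for genes, and Benjamini-Hochberg adjusted p under 0.05 over all genes. The same fit gave an F test of the experiment term. Scripts were tested on simulated data. The pairing comes from the design text, which sets each culture against its own control. After group means were removed, the arrays of an experiment correlated with each other at 0.087, -0.065 and -0.029. Arrays of different experiments correlated at -0.073 to 0.113, with the highest value for control 3 with irradiated 2. Only in experiment 1 was the stated pair the best match. The p-values of irradiation set a mean difference against the spread of its 3 paired differences, which eBayes draws towards that of all genes. Tead3, whose 3 differences had an SD of 0.015, was thus given an SE of 0.076.

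The 10 genes, the gene lists, the tests and the alternatives were chosen with earlier results of these data known. Alternatives were no block, a random block, a filter at the median level, eBayes with trend and robust settings, an ordinary paired test, centring of arrays, other ways to choose probe sets, and leaving out each experiment. Besides the members, the text names per list the 4 genes with the smallest unadjusted p, and Ccn1, Ccn2, Stk4, Nf2 and Vgll4 in any case. It also names the 3 genes most like Ankrd1, Amotl2 and Yap1. Promoter windows are from RefSeq.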

Additional observations from a re-analysis of the deposited data

How the results depend on the processing

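No alternative called any of the 10 genes, and without the replicate block limma with Benjamini-Hochberg also called 0 of 18193 genes (649 at an unadjusted p under 0.05) and 0 of 45037 probe sets (1841). The ordinary paired test called 8 genes and 12 probe sets, none of them a member. That test sets p to 0 where the 3 differences are equal, which values rounded to 2 decimals allow. Its lowest adjusted p was 0, and how many of its calls arose this way was not counted. Of the 10 genes 5 lay above 0. With only genes at or above the median level it was 3 of 6, because fewer genes were tested, and with the probe set of the largest SD 2 of 10. Taking that probe set, Wwtr1 stood at -0.11, Tead4 at -0.11 and Lats2 at -0.21, on the other side of 0, and with the mean of all probe sets Wwtr1 stood at -0.04, since each setting reads other probe sets. Centring the arrays put Yap1 and Lats1 at 0.0033. Leaving out 1 experiment gave -0.03 to 0.04 for Yap1, -0.02 to 0.005 for Lats1 and -0.06 to 0.17 for Lats2, and the other 7 genes kept their sign. Tead4 ran from 0.27 to 0.45, with an unadjusted limma p of 0.112 without experiment 1 or 3. Without experiment 2 Ankrd1 stood at -0.29 (unadjusted p 0.0325 and adjusted p 0.994 in limma). Tead4 had an unadjusted limma p of 0.00858 there (adjusted p 0.994), so that 2 of 10 genes were under 0.05 unadjusted. Of all 18193 genes 518 were. The range was 0.01 to 0.065 for Tead1, 0.03 to 0.16 for Tead2, -0.15 to -0.01 for Amotl2 and -0.29 to -0.08 for Ankrd1. Between experiments 0 genes were called, against 1 at or above the median level, 2 with trend and robust settings, 1 with the mean of all probe sets and 1 with the probe set of the largest SD, none of them a member. At an unadjusted limma p under 0.05 the mean of all probe sets gave 2 of 10 members, Tead4 (0.037) and Tead1 (0.0422). The probe set of the largest SD gave 1, Tead1 (0.0348). Of all 18193 genes 993 and 886 reached that level in these settings. The cause was not tested. Detection calls were not used here, and Tead4 and Ankrd1 were the members furthest below the median gene.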
